A study of Mus musculus with 6 samples.

Results

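Cytosolic ribosomal proteins are the protein parts of the ribosome, the machine that translates messenger RNA. The genes described here were all those with at least 1 probe set annotated to a single symbol that begins with Rpl or Rps and a digit, or that is Rplp0, Rplp1, Rplp2 or Rpsa. The S6 kinase genes (Rps6k) and pseudogenes, whose symbols end in -ps with or without a number, were left out. This gave 50 genes on 106 probe sets, of 18193 genes with such a probe set in all. A gene's value is that of the probe set with the highest mean over the 6 arrays. Of the 50 genes, 43 belong to the 80 standard ribosomal proteins (22 of the large and 21 of the small subunit), 6 are paralogs (Rpl3l, Rpl7l1, Rpl22l1, Rpl39l, Rps4l and Rps27l), and 1, Rps19bp1, encodes a protein that binds Rps19 and is not part of the ribosome. A further 27 standard proteins had only probe sets that carry several symbols, among them Rpl5 and Rplp1, and were not used here.

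A ribosome has a small subunit, which reads the message, and a large subunit, which joins amino acids. Cells make the proteins of both in matched amounts. The messages of ribosomal proteins usually begin with a C and a run of pyrimidines, the terminal oligopyrimidine (TOP) motif, through which mTOR signalling sets how strongly they are translated. In neurons mTOR signalling is known for its part in synaptic plasticity and has been studied in the response to antidepressants.

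The samples were ribosome-bound RNA from cortex of S100a10 bacTRAP mice (line ES691), in which a bacterial artificial chromosome carrying the S100a10 control region drives a tagged ribosomal protein, so that ribosomes of S100a10-expressing cells can be affinity-purified (TRAP). All mice carried this transgene and came from an FVB founder strain crossed back to C57BL/6 over 3 to 5 generations. For 15 to 18 days they received fluoxetine, a serotonin reuptake inhibitor, at 0.167 mg/ml in 1% saccharine (3 arrays) or 1% saccharine alone as vehicle (3 arrays). The labels call the arrays biological replicates but give neither age nor the number of mice behind each, so p-values measure the spread between these samples, which may be partly technical. The submitters state that the line also labels some non-neuronal cells.

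The arrays had median intensities of 47.3 to 48.6 and correlated with each other at 0.993 to 0.997 in log2. Of the 8 cortical neuron and layer 5 markers, 7 had a level above the filter on low values, with an average of 12.6 to 12.8 in log2 on the 6 arrays. The 8 astrocyte markers averaged 11.59, 9.98 and 11.05 with fluoxetine and 10.18, 10.36 and 10.32 with vehicle. Much of that spread lay in Gfap, at 12.13, 4.49 and 9.02 against 4.71, 5.24 and 5.67, and without it the other 7 averaged 11.52, 10.77 and 11.34 against 10.97, 11.09 and 10.99. Sox9, a transcription factor of astrocytes, had the smallest p of these lists, at 8.89, 8.74 and 8.68 against 8.17, 8.16 and 8.23, and did not pass the adjusted test. The 4 oligodendrocyte markers that passed averaged 9.93 to 10.59, and all 4 had a lower mean with fluoxetine (median difference −0.18). The 6 markers of meninges and vessel wall averaged 10.01, 9.79 and 9.85 with fluoxetine against 9.50, 9.70 and 9.94. Of these, 4 had a higher mean with fluoxetine (median difference of the 6, 0.26), among them Col1a1 (0.75 ± 0.24, SE) and Col3a1 (0.58 ± 0.24). The other 2, Acta2 (−0.59 ± 0.32) and Rgs5 (−0.22 ± 0.14), were lower. The 4 of 6 microglial and 3 of 5 endothelial markers that passed averaged 7.60 to 8.31 and 5.40 to 6.18, with a higher mean under fluoxetine in 4 of 4 (median difference 0.15) and 1 of 3, and P2ry12, Aif1, Pecam1 and Tek lay below the filter on average. The part of these markers in the results was not tested.

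Sequences around the annotated start of transcription were looked up in RefSeq for GRCm38.p6, and 44 of the 50 genes had at least 1 window, 52 in all. In 8 genes a C followed by at least 4 bases that are each C or T stood exactly at the start, the position at which the TOP motif is defined. They are printed from 10 bases before the start to 19 bases after it, with the run of pyrimidines in capitals.
Rpl14, chr9:120571507-120571536, plus strand: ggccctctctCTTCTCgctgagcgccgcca
Rpl35, chr2:39005112-39005141, minus strand: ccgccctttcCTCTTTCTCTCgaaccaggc
Rpl38, chr11:114668570-114668599, plus strand: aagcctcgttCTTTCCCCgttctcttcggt
Rplp2, chr7:141447641-141447670, plus strand: cagcgtcttcCTTTCgccgccggacgccgc
Rps6, chr4:86857348-86857377, minus strand: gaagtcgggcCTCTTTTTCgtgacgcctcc
Rps10, chr17:27635225-27635254, minus strand: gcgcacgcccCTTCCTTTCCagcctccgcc
Rps18, chr17:33955646-33955675, minus strand: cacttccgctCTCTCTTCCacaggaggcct
Rps27, chr3:90213629-90213658, minus strand: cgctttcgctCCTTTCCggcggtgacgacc

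Such a run stood at the start in 8 of the 52 windows (15.4%), against 2.48% of the 32799 windows of other genes. A run that begins within 10 bases of the start was found in 53.8% of the windows, against 30.7%. The sequence CCGGAAG, the core bound by ETS factors, was found on either strand in 40.4% of the windows, which run from 250 bases before the start to 50 bases from it, against 8.81%. TATAA in the 50 bases before the start was found in 9.62% against 4.92%, and AAGATGGC, a YY1 site, on either strand in 7.69% against 2.74%. A match is a description of the letters and not of a factor's binding. Rps18 and Rps27 had 2 of these motifs in the 120 bases before their start and were picked for display after this was seen, with the motifs in capitals.
Rps18, chr17:33955666-33955785, minus strand: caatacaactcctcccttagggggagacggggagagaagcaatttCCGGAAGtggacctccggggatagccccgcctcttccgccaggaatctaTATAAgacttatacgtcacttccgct
Rps27, chr3:90213649-90213768, minus strand: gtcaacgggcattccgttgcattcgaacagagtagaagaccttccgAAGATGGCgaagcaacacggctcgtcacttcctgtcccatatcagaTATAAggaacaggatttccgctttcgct
The 8 genes with a run of pyrimidines at the start had a median difference between fluoxetine and vehicle of −0.07 in log2 (−0.18 to 0.02), and so did the 33 tested genes that have a window without it (−0.07, from −0.32 to 0.12). A run within 10 bases of the annotated start stood in 27 of the 44 genes, and Rpl13a and Rpl27a of the 33 are among them. The 33 are thus not a group without the TOP motif, and its part was not tested.

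Fluoxetine was set against vehicle to see which ribosome-bound messages of S100a10 cells differ after prolonged treatment. No ribosomal protein gene passed the test. Of the 50 genes, 47 passed the filter (a geometric mean intensity of at least 50), and 44 of these had a lower mean with fluoxetine, where 68.5% of all 12248 genes tested did so, and 80.4% of the 1161 with a mean log2 intensity of at least 13. The differences were small, with a median of −0.08 on the log2 scale, a fold of 0.946, beside −0.06 over all genes tested. The count depended on the scaling of the arrays: 29 of the 47 were lower after quantile normalization and 27 after shifting the tested probe sets of each array to a common median, beside 50.8% and 50.6% of all genes, and the median of the ribosomal genes was then −0.03 and −0.02. In ribosome-bound RNA purified from many cells together, fewer cells of a type and less ribosome-bound RNA per cell cannot be told apart.

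None of the 47 passed limma's moderated test, with p-values adjusted by Benjamini-Hochberg across 22326 probe sets (0% of all genes passed, and the smallest adjusted p of a ribosomal gene was 0.999). At an unadjusted p under 0.05 the count was also 0 of 47, where 2.66% of all genes lay under that value (1.95% lower and 0.71% higher with fluoxetine). For 42 of the 47 the difference was smaller than its standard error, and for 1, Rps4l, it was over 2 standard errors from 0. These standard errors, 0.10 to 0.37, are limma's, which draws each gene's variance toward a value shared by all probe sets. They can thus exceed what a gene's own arrays give: Rps3, with group SDs of 0.037 and 0.038, had a standard error of 0.10. The matching shares over all genes were not counted. The fluoxetine arrays lay wholly below the vehicle arrays for 3 genes (Rpl39, Rps28 and Rps4l), beside 5.99% of all genes, and wholly above them for 0, beside 2.32%.

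**Figure D1:**
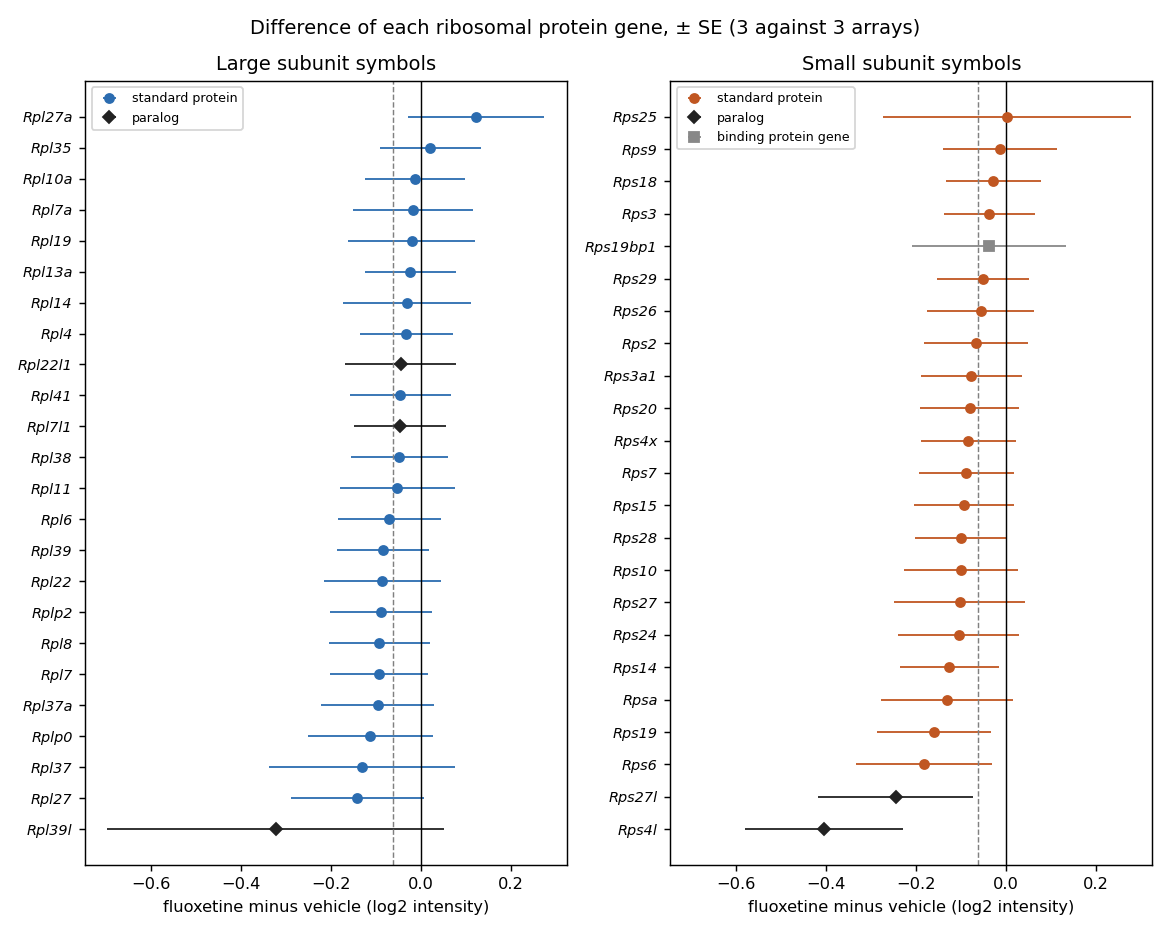
Each point is the fluoxetine minus vehicle difference of 1 gene in log2 intensity with its standard error from limma (3 arrays against 3), in panels for symbols of the large and small subunit; the dashed line marks the median of all tested genes, −0.06. The standard proteins lie between −0.18 and 0.12, and Rps4l (−0.40), Rpl39l (−0.32) and Rps27l (−0.24), all paralogs, lie furthest to the left.

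The arrays differed more within the vehicle group than the groups did from each other. Averaged over the 47 genes, log2 intensity was 13.49, 13.51 and 13.44 with fluoxetine against 13.42, 13.67 and 13.59 with vehicle. Vehicle 1 thus lay below all 3 fluoxetine arrays, while vehicle 2 and vehicle 3 lay above them. The group means were 13.48 ± 0.04 with fluoxetine and 13.56 ± 0.13 with vehicle (SD, n = 3 each), a difference of −0.08, whereas vehicle 2 exceeded vehicle 1 by 0.25. Gene by gene, 46 of the 47 were above their own mean on vehicle 2 and 40 on vehicle 3, but 5 on vehicle 1, 7 on fluoxetine 3, 17 on fluoxetine 1 and 19 on fluoxetine 2. For 44 genes the range of the 3 vehicle arrays was wider than the difference between the groups. A range of 3 values is readily wider than a difference between means, and the share over all genes was not counted. The count therefore does not set these genes apart.

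Over all genes the vehicle arrays lay closer to each other. The median deviation of the ribosomal genes from their own mean was −0.08 on vehicle 1, 0.13 on vehicle 2 and 0.08 on vehicle 3, and that of all tested genes was −0.01, 0.09 and 0.02. Both subunits had this profile: the large subunit deviated by −0.08, 0.12 and 0.05 on the 3 vehicle arrays and the small subunit by −0.07, 0.12 and 0.10. Without vehicle 1 the median difference was −0.13 (45 of 47 lower), beside −0.08 and 71.1% lower over all genes. Without vehicle 2 it was −0.03 (34 of 47 lower), beside −0.03 and 58.8% lower over all genes. The astrocyte markers were lowest on fluoxetine 2 and highest on fluoxetine 1. Nuclear transcripts (Malat1, Meg3, Neat1, Miat and Snhg11) averaged 7.19, 7.96 and 7.92 with fluoxetine and 8.28, 8.12 and 7.32 with vehicle. On average vehicle 1 was thus highest and vehicle 3 lowest among the vehicle arrays, as in Malat1 (9.85, 8.85 and 6.99), Meg3 and Snhg11. In Neat1 (7.60, 7.91 and 7.74) and Miat (7.39, 7.64 and 7.435) vehicle 1 was instead the lowest. A lower mean with fluoxetine was found for 5 of 5 transcripts, beside 68.5% of all genes. The part of these transcripts was not tested either.

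**Figure D2:**
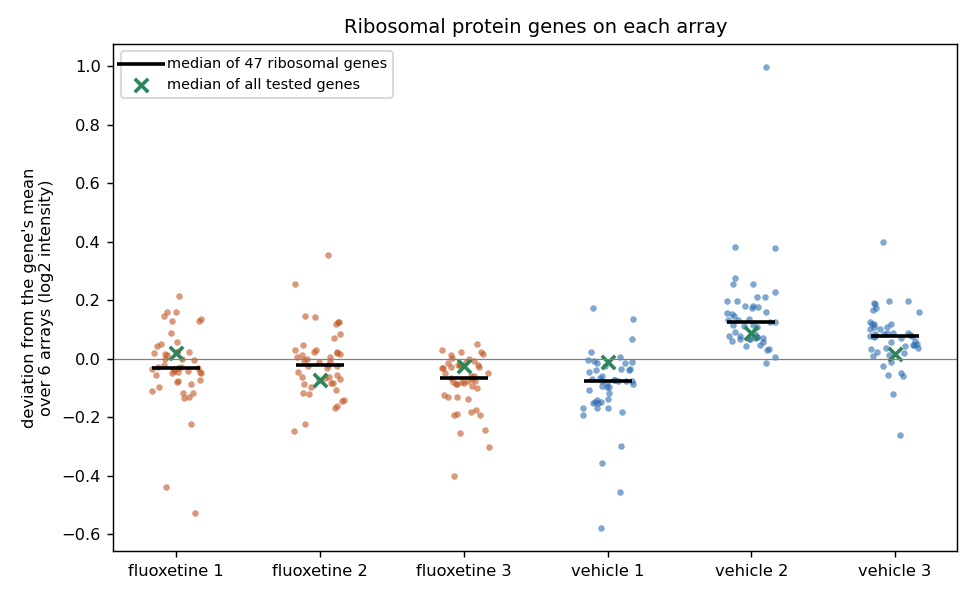
Each point is 1 of the 47 tested genes on 1 array, as its deviation from its own mean over the 6 arrays in log2 intensity; black bars are the medians of these genes and green crosses those of all tested genes. Vehicle 2 (median 0.13) and vehicle 3 (0.08) lie above the other 4 arrays, and vehicle 1 (−0.08) lies with the fluoxetine arrays.

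**Figure D3:**
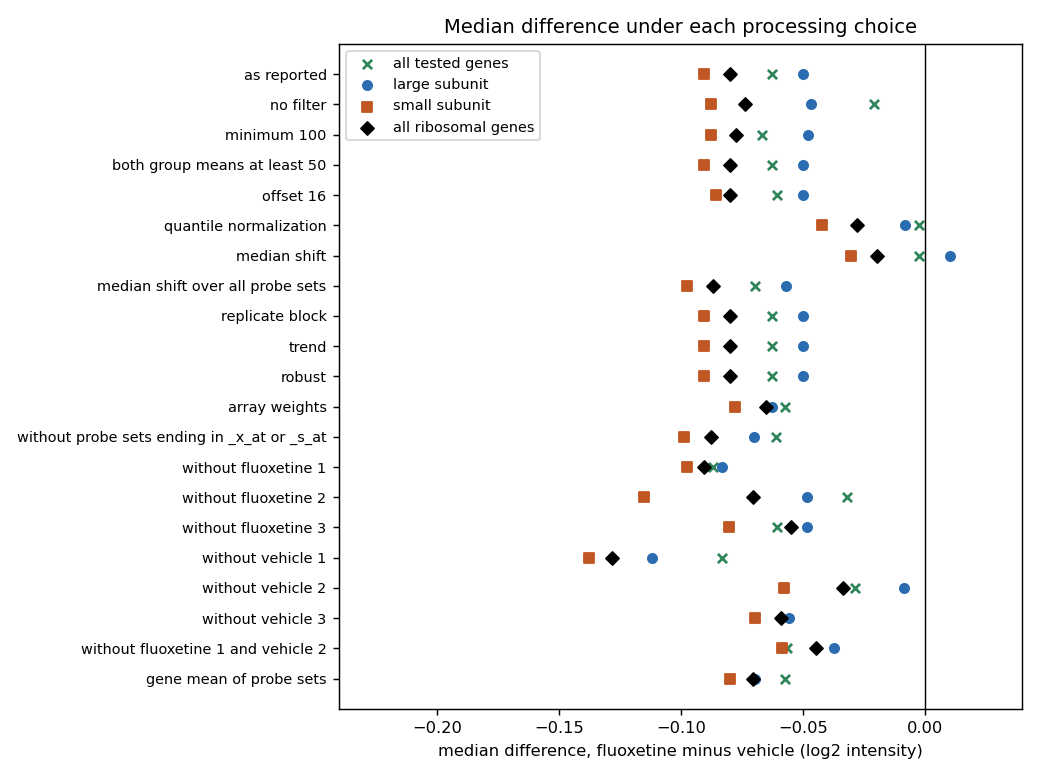
Median fluoxetine minus vehicle difference in log2 intensity of all ribosomal genes, each subunit and all tested genes, 1 row per processing choice or left-out array. The ribosomal median runs from −0.13 (without vehicle 1) to −0.02 (median shift), where the large subunit median is 0.01.

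Large subunit genes had a median difference of −0.05, with 22 of 24 lower, but 11 of 24 were lower (median 0.01) after the median shift and 13 (median −0.01) after quantile normalization. Without vehicle 2 their median was −0.01. Rpl10a encodes the protein that carries the tag in bacTRAP lines. It measured 15.12, 14.98 and 15.06 with fluoxetine and 14.96, 15.09 and 15.14 with vehicle. The groups overlapped fully, with a difference of −0.01 ± 0.11 (log2, SE). Whether its probe set also reads the message of the transgene was not tested.

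Rplp0 and Rplp2 form, with Rplp1, the stalk that recruits elongation factors. Rplp0 measured 14.88, 14.58 and 14.53 with fluoxetine and 14.64, 14.80 and 14.89 with vehicle. Rplp2 measured 15.17, 15.16 and 15.20 against 15.12, 15.35 and 15.32. In both genes vehicle 1 lay inside or below the fluoxetine range, and the differences were −0.11 ± 0.14 and −0.09 ± 0.11 (SE). Leaving out 1 array moved that of Rplp0 between −0.22 (without fluoxetine 1) and −0.05 (without fluoxetine 3).

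Several large subunit proteins also act outside the ribosome. Rpl11, which restrains the p53 inhibitor Mdm2, differed by −0.05 ± 0.13 (SE), Rpl13a, which can silence inflammatory messages, by −0.02 ± 0.10, and Rpl38, known for the translation of Hox messages, by −0.05 ± 0.11. Rpl7 differed by −0.09 ± 0.11. Rpl39, at the tunnel through which new protein leaves, measured 8.91, 8.97 and 8.98 with fluoxetine and 8.99, 9.03 and 9.08 with vehicle. Its groups did not overlap, but the difference of −0.08 ± 0.10 was below its standard error from the moderated fit. Rpl37, among the 4 genes with the widest spread, measured 9.97, 10.23 and 9.91 against 9.75, 10.25 and 10.50, and the vehicle arrays alone spanned the whole range of both groups. Its difference of −0.13 ± 0.21 was −0.34 without vehicle 1 and 0.04 without vehicle 3. Of the 25 tested genes given here by their role or rank, 23 had a difference that grew or shrank by over 1.5 times, or changed sign, when some array was left out. Rpl39 and Rps28 were the exceptions. The count was 18 without vehicle 1, 19 without vehicle 2 and 9 without vehicle 3. It was 11, 13 and 10 without fluoxetine 1, 2 and 3. Differences within their standard error move readily, and the share over all genes was not counted. The counts therefore do not set these genes apart.

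The 3 tested standard genes with a higher mean under fluoxetine were Rpl27a, Rpl35 and Rps25. Rpl27a measured 10.19, 9.93 and 9.99 with fluoxetine and 9.87, 10.15 and 9.71 with vehicle. The groups overlapped, and the difference was 0.12 ± 0.15 (SE), between 0.02 without vehicle 3 and 0.24 without vehicle 2. Rpl35 differed by 0.02 ± 0.11, or by −0.01 without vehicle 1. Rps25, a small subunit protein used by some viral messages, differed by 0.00 ± 0.28 and read 8.71 on vehicle 1 but 9.48 and 9.66 on the other vehicle arrays.

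Small subunit genes had a median difference of −0.09, with 21 of 22 lower, and of −0.03 and −0.04 after the median shift and quantile normalization (16 of 22 lower under both). Whether the subunits differ from each other was not tested. Rps6, the substrate of the S6 kinases, had the most negative difference of the standard proteins. It measured 10.15, 10.16 and 9.93 with fluoxetine and 10.002, 10.43 and 10.36 with vehicle. Vehicle 1 fell among the fluoxetine arrays, and the difference was −0.18 ± 0.15 (SE), or −0.31 without vehicle 1 and −0.10 without vehicle 2. A second probe set of Rps6, at 6.60 on average, differed by 0.21.

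Rps19, a protein of small subunit maturation that is mutated in Diamond-Blackfan anaemia, measured 13.67, 13.80 and 13.59 with fluoxetine and 13.68, 13.97 and 13.90 with vehicle. Again vehicle 1 lay within the fluoxetine range, and the difference was −0.16 ± 0.13 (SE), or −0.24 without vehicle 1 and −0.10 without vehicle 2. Rps14 measured 15.11, 15.08 and 15.07 against 15.09, 15.31 and 15.24, with the same arrangement and a difference of −0.13 ± 0.11. Rpsa, also known as the laminin receptor, differed by −0.13 ± 0.15, or by −0.24 without vehicle 1 and −0.04 without fluoxetine 2. Rps28 measured 15.76, 15.78 and 15.73 against 15.79, 15.87 and 15.89. Its groups did not overlap, by a gap far smaller than the distance between vehicle 1 and vehicle 2, and the difference was −0.10 ± 0.10. On the further probe sets of Rps28, at 15.29 and 15.26 on average, the groups overlapped (−0.065 ± 0.11 and −0.08 ± 0.11). Rps29 differed by −0.05 ± 0.10 and Rps27 by −0.10 ± 0.15.

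Of the 5 tested paralogs, 3 had the widest differences of all ribosomal genes. All 5 were lower with fluoxetine, with a median of −0.24, beside 68.5% lower of all genes, and none passed the test. Rpl22l1 and Rpl7l1 were higher with fluoxetine after either scaling. The 3 with the widest differences lay under 13 in log2. Ribosomal genes under that level had a median SD over the 6 arrays of 0.20, against 0.09 for the brighter ones. The paralogs were set apart from the standard proteins after values had been seen. Rps4l, a gene named for its likeness to Rps4x, measured 10.29, 10.84 and 10.71 with fluoxetine and 10.99, 11.19 and 10.87 with vehicle. The groups did not overlap, though fluoxetine 2 and vehicle 3 nearly met. The difference was −0.40 ± 0.17 (SE), a fold of 0.756, with an adjusted p of 0.999 in limma. It was −0.24 to −0.52 when 1 array was left out, with the value nearest 0 without fluoxetine 1, −0.15 without fluoxetine 1 and vehicle 2, and −0.32 and −0.34 after quantile normalization and the median shift. Rps4x itself differed by −0.08 ± 0.11.

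Rps27l, a paralog of Rps27 that p53 can induce, measured 11.29, 11.55 and 11.00 with fluoxetine and 11.32, 11.66 and 11.60 with vehicle. The groups overlapped, with fluoxetine 3 lowest. The difference was −0.24 ± 0.17 (SE), and those of its further probe sets were −0.19 and −0.15. Without fluoxetine 3 it was −0.11, and without fluoxetine 2 it was −0.38. Rpl39l, a paralog most abundant in testis, measured 5.67, 6.37 and 5.81 against 5.66, 7.11 and 6.06, just above the filter. Its difference of −0.32 ± 0.37 rested on vehicle 2, without which it was 0.10. Rpl22l1 (−0.04 ± 0.12) and Rpl22 (−0.09 ± 0.13) differed little, and so did Rpl7l1 (−0.05 ± 0.10), a factor of ribosome assembly. Rps19bp1 differed by −0.04 ± 0.17, and without it 43 of 46 genes were lower.

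**Figure D4:**
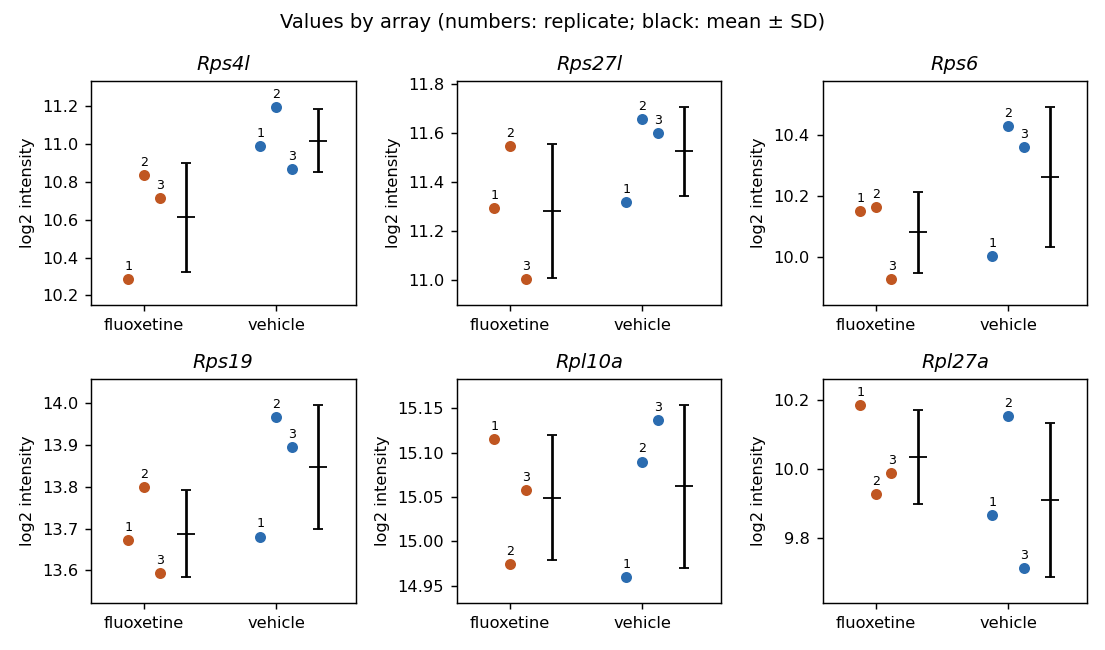
Log2 intensity of 6 genes on each array, with the replicate number beside each point and the mean ± SD in black (n = 3 per group); the axes differ between panels and do not start at 0. In Rps27l, Rps6, Rps19 and Rpl10a vehicle 1 is the lowest vehicle array, and in Rps4l the groups do not overlap.

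Of the 106 probe sets, 90 passed the filter, of which 82 were lower (66.3% of all tested probe sets were) and 8 higher with fluoxetine. For 21 genes more than 1 probe set passed. In 16 of them all were lower, and in 5 (Rpl35, Rpl37a, Rps6, Rps7 and Rps20) the probe sets went both ways. Probe sets of a gene read the same 6 samples, and the matching share over all genes was not counted. The count was not repeated after either scaling, so it does not set these genes apart. The 5 probe sets of Rps10 differed by −0.19 to −0.08 and the 5 of Rpl35 by −0.16 to 0.02. The probe sets of a gene could read far apart, at 15.17 and 6.20 for Rpl41 and at 14.79 and 5.955 for Rps18, so an intensity here is a property of the probe set as well as of the message. Rps16 (1.89), Rpl3l (2.61) and Rpl12 (2.89 in log2) lay below the filter on their brightest probe set and were not tested. Rpl3l is a paralog of striated muscle. The tested probe sets closest to the filter, which stands at 5.64, were those of Rps27 (5.87) and Rpl39l (6.11). The median standard error of a ribosomal gene was 0.118, beside 0.151 over all genes tested and 0.124 over the 1161 genes with a mean log2 intensity of at least 13.

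Other genes of translation were counted in the same way, against 68.5% lower among all genes tested. Their lists were chosen with earlier results of these data known, and 0 of their genes passed limma's test after adjustment over all probe sets. Limma's unadjusted p was under 0.05 for 3: Hnrnpa1, Nop14 and Rps6ka6, from lists of 17, 48 and 22 tested genes. The other translation lists held none, and 2.66% of all genes lay under that value. The lists share 10 genes. The factors that deliver amino acids and move the ribosome along, the elongation factors, were lower in 8 of 9 cases (median −0.08), with Eef1d at −0.20 ± 0.13 (SE) and Eef1a2, the neuronal form, at 0.16 ± 0.14. Initiation factors were lower in 31 of 35 (median −0.07). Eif4a2, a helicase that opens messages for the small subunit, was lower without overlap, with a difference of −0.14 ± 0.10. It measured 14.19, 14.16 and 14.12 with fluoxetine and 14.25, 14.27 and 14.37 with vehicle. Eif1ad was also lower without overlap (−0.21 ± 0.11), whereas Eif4b, also counted among the TOP messages below, was higher without overlap (0.09 ± 0.10). Of all genes, 5.99% were lower and 2.32% higher without overlap. Aminoacyl tRNA synthetases were lower in 17 of 19 (median −0.07; Iars −0.23 ± 0.17).

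Of other messages known for a TOP motif, 14 of 17 were lower (median −0.07), but 7 of the 17 are elongation or initiation factors already counted. Hnrnpa1, an RNA-binding protein, measured 10.38, 10.45 and 10.49 with fluoxetine and 10.67, 10.69 and 10.75 with vehicle. The groups did not overlap, and the difference was −0.26 ± 0.10 (SE; unadjusted p = 0.040, the only one of the list under 0.05). Fau, whose product includes a small subunit protein, differed by −0.13 ± 0.11. Mitochondrial ribosomal proteins, which serve the separate ribosomes of mitochondria, were lower in 64 of 76 (median −0.06; Mrpl9 −0.29 ± 0.13).

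Ribosome assembly factors were lower in 40 of 48 (median −0.08). Nolc1, a nucleolar phosphoprotein, differed by −0.28 ± 0.14 (SE), whereas Nop14, a factor of small subunit assembly, measured 8.32, 8.40 and 8.74 with fluoxetine and 8.31, 7.78 and 8.04 with vehicle, a difference of 0.44 ± 0.18. RNA polymerase I genes, which make ribosomal RNA, were lower in 10 of 14 (median −0.10; Ubtf −0.20 ± 0.11). In mTOR and S6 signalling 14 of 22 were lower (median −0.09). Rictor, of the second mTOR complex, differed by −0.40 ± 0.17. The S6 kinase gene Rps6ka6, at 8.04, 7.13 and 7.76 against 6.43, 6.85 and 6.39, was higher without overlap and did not pass the test. The other S6 kinase genes tested in this list, Rps6ka3 (−0.22 ± 0.20) and Rps6kb2 (−0.14 ± 0.16), were lower with overlap. After the median shift these counts were 5 of 9, 20 of 35, 10 of 19, 9 of 17, 38 of 76, 30 of 48, 9 of 14 and 12 of 22, in the order given, beside 50.6% of all genes. After quantile normalization they were 7 of 9, 20 of 35, 9 of 19, 13 of 17, 31 of 76 (median 0.01), 29 of 48, 8 of 14 and 12 of 22, beside 50.8%. Without fluoxetine 2, 20 of 35 initiation factors, 7 of 19 synthetases and 40 of 76 mitochondrial proteins were lower, beside 57.2% of all genes, and without vehicle 2, 43 of the 76 were.

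**Figure D5:**
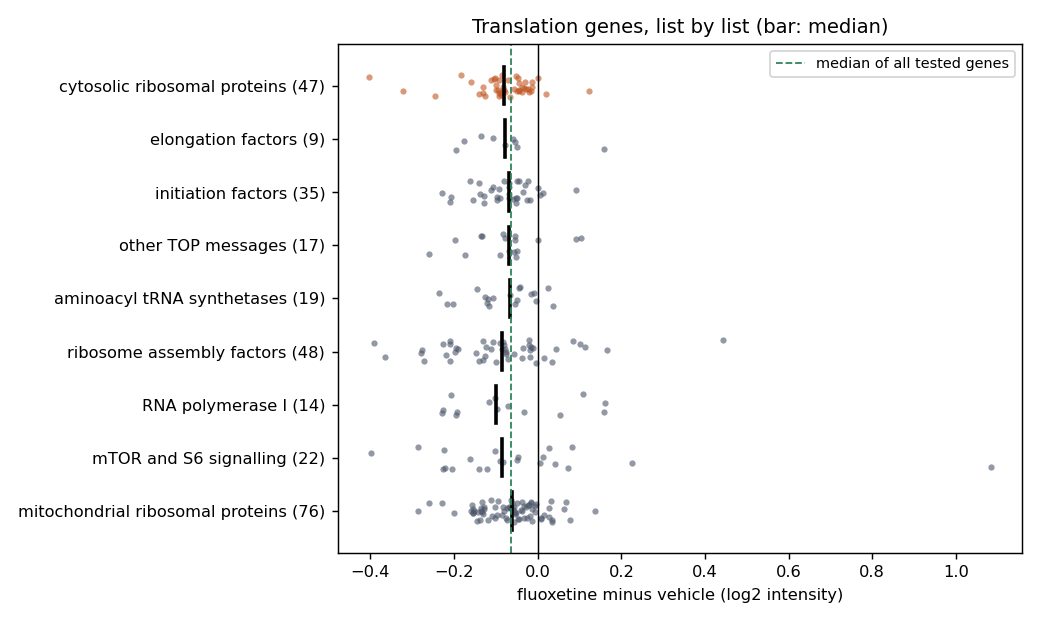
Each point is a tested gene's fluoxetine minus vehicle difference in log2 intensity, by list, with the number of genes in brackets, black bars at the medians and a dashed line at the median of all tested genes (−0.06). The medians of all 9 lists lie between −0.10 and −0.06, and Rps6ka6 and Nop14 lie furthest to the right.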

How the data were processed

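The authors deposited linear intensity values (1.74 to 99076) for single-colour arrays, which the submitters' processing notes name as GCRMA output without a version. Per the labels' protocols, 15 ng of RNA was amplified over 2 rounds, and such amplification and between-array normalization can both alter small shared shifts. The 6 sample columns were used without 64 array controls. A platform annotation gave 1 symbol to 34945 probe sets, several to 932 and none to 9160.

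The deposited intensities were taken to log2 with no offset. The filter was a geometric mean of at least 50 over the 6 arrays, which 22326 probe sets passed. Fluoxetine minus vehicle was fitted in limma 3.58.1 (R 4.3.3; lmFit, eBayes; unblocked; two-sided; Benjamini-Hochberg; threshold 0.05), after a test on simulated data. The number of arrays limits the precision. The members and lists were chosen with earlier results of these data known; lists get counts and medians, no test.

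Members were named by fixed roles and paralog pairs, then the 6 smallest p per direction, 3 brightest, 3 dimmest, 4 of widest spread and those with a tested probe set of opposite sign differing by at least 0.2, plus up to 3 genes per translation list. Rps4x, Rps10, Rps18 and other genes outside this rule, among them Eif4b and Rps6kb2, and the motif windows, were chosen after values were seen. Sequences are RefSeq's (GRCm38.p6).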

Additional observations from a re-analysis of the deposited data

How the results depend on the processing

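No probe set passed limma's adjusted test under any alternative that counted probe sets: other filters, an offset of 16, both scalings, the replicate block, trend, robust, array weights, dropping _x_at and _s_at probe sets, or dropping any array. Same-numbered arrays correlated at −0.25, −0.03 and −0.50 in their deviations from the group mean, which gave no sign of pairing by number. Differently numbered arrays were not compared, so these 3 values cannot exclude such pairing. With the replicate block 44 of 47 ribosomal genes were lower at a median of −0.08, with 209 genes instead of 326 at an unadjusted p under 0.05 in limma. Quantile normalization left 29 lower (median −0.03) and the median shift 27 (median −0.02). That shift was first computed over all probe sets, which gave 45 lower (median −0.09), and was changed to the tested probe sets after this value was seen. Dropping 1 array gave counts of 34 to 45 and medians of −0.13 to −0.03 (large subunit −0.11 to −0.0084, small subunit −0.14 to −0.06). The brightest probe set ended in _x_at or _s_at for 17 of the 47 genes. Without all such probe sets 36 of 39 genes were lower (median −0.09), beside 67.8% of all genes. Without fluoxetine 1 and vehicle 2, a choice made after seeing the data, 37 of 47 were lower (median −0.04). The cause was not tested.

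Several named genes changed sign, most of them near 0 but also Rpl39l (−0.32 as reported), Rps6 (−0.18) and Rpl37 (−0.13). With quantile normalization Rpl10a stood at 0.032, Rpl11 at 0.017, Rpl13a at 0.0099, Rpl22l1 at 0.019, Rpl7l1 at 0.029 and Rps29 at 0.00096. With the median shift Rpl10a stood at 0.047, Rpl11 at 0.0083, Rpl13a at 0.037, Rpl38 at 0.013, Rpl22l1 at 0.016, Rpl7l1 at 0.015 and Rps29 at 0.010. Rps25 stood at −0.0055 with the shift over all probe sets and Rpl10a at 0.0042 with array weights. Rpl35 stood at −0.16 without _x_at and _s_at probe sets and at −0.042 as the mean of its probe sets, where Rps6 stood at 0.015. Dropping 1 array moved Rpl10a between −0.064 and 0.024, Rpl11 between −0.14 and 0.040, Rpl22l1 between −0.12 and 0.022, Rpl35 between −0.037 and 0.059, Rps25 between −0.29 and 0.19, Rpl37 between −0.34 and 0.036 and Rpl39l between −0.63 and 0.096. Without fluoxetine 1 and vehicle 2, Rpl11 stood at 0.062, Rpl22l1 at 0.070 and Rpl39l at 0.23.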
